A study of Bos taurus with 6 samples.

Results

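The 5 genes described here encode the tissue-type plasminogen activator (PLAT), the urokinase-type plasminogen activator (PLAU), the urokinase receptor (PLAUR) and the serpin inhibitors SERPINE2 and SERPINA5. They were found by their symbols in the platform's probe annotation, where each had 1 probe, among 27429 genes and unnamed probes compared in all. Every one of the 5 probes was above the background limit for both RNAs on all 6 arrays. The limit was set on each array, per channel, at the 95th percentile of its negative controls.

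The samples were granulosa cells, the steroid-producing cells inside the ovarian follicle, aspirated from pre-ovulatory follicles of multiparous Holstein cows. Cells of 3 cows given cetrotide were set against cells of 3 control cows. Cows of both groups had been stimulated with gonadotropins and then coasted, which means that follicle stimulating hormone (FSH) was withdrawn, and cells were collected 68 hours after the last FSH injection. Cetrotide (cetrorelix) blocks the pituitary receptor of gonadotropin releasing hormone and so reduces secretion of luteinizing hormone (LH). The sources used here give neither its dose and timing nor which cows shared an array. Each of 6 two-colour arrays carried cetrotide RNA and control RNA, with cetrotide RNA in Cy5 on the 3 arrays of slide 1 and in Cy3 on the 3 arrays of slide 2. The 2 arrays with the same area number were averaged into 1 dye-swap replicate, so n = 3. Values are log2 ratios of cetrotide over control unless called levels, which are normalized log2 intensities of 1 RNA on 1 array.

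Plasminogen activators are serine proteases that cut the circulating zymogen plasminogen into plasmin, a broad protease that digests fibrin and loosens the follicle wall. Urokinase acts mainly on cell surfaces, where PLAUR holds it, and tissue-type activator acts best on fibrin. Serpins trap these proteases in inactive complexes. In granulosa cells the activators and their inhibitors are known as hormone-controlled genes of the periovulatory period.

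Across the 6 arrays, 53.5% to 82.5% of all probes were above the background limit per RNA, and the median spot measured 107 to 313 scanner units. Of 10 measured granulosa markers, 8 were above the limit for both RNAs on every array, FSHR and CYP19A1 (aromatase) among them, while FOXL2 passed it on 2 arrays in cetrotide RNA and on 0 arrays in control RNA. The number of arrays limits the precision.

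With limma on the 3 dye-swap averages, 0 of the 5 genes passed an adjusted p of 0.05 in either direction, and the share of all genes that passed was 0% for higher and 0% for lower ratios. At an unadjusted p under 0.05, PLAT and PLAUR were higher with cetrotide, 2 of 5, where 8% of all genes were, and 0 of 5 were lower, where 6.46% of all genes were. PLAT alone of the 5 had a ratio above 0 on all 6 arrays, as 7.86% of all genes had.

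**Figure D1:**
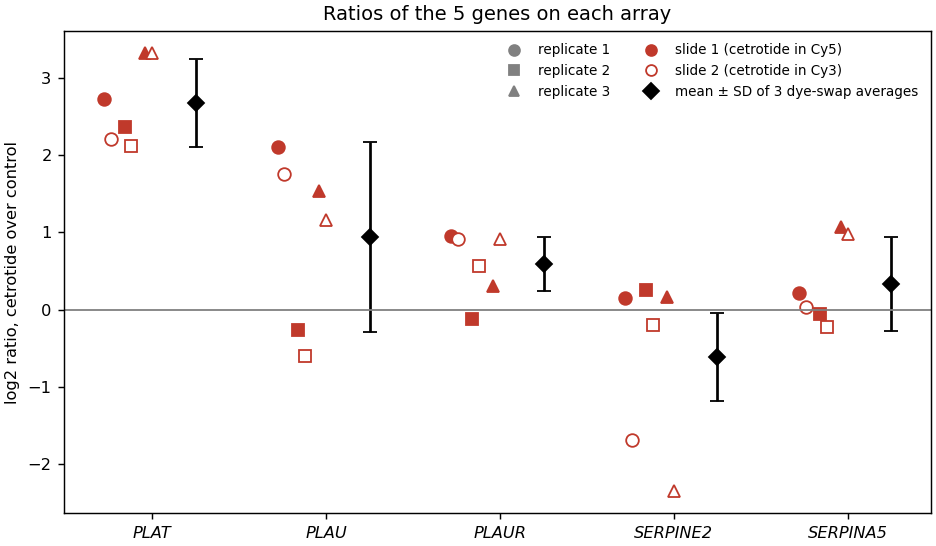
Log2 ratio of cetrotide over control (vertical axis) of the 5 genes, 1 point per array, filled for slide 1 and open for slide 2, with the replicate shown by the marker shape. Diamonds and bars give the mean and SD of the 3 dye-swap averages. PLAT lies between 2.12 and 3.32 on all arrays, PLAU is below 0 in replicate 2, and SERPINE2 separates by slide.

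PLAT, the tissue-type activator, was more abundant in cetrotide RNA than in control RNA on every array. Its spots measured 1038, 1031 and 5123 scanner units for cetrotide RNA on slide 1 in replicates 1, 2 and 3, against 206, 347 and 780 units for control RNA. On slide 2 they measured 1501, 1185 and 7323 units for cetrotide RNA, against 291, 256 and 745 units for control RNA. Replicate 3 was the brightest in both RNAs. Control RNA was dim in replicates 1 and 2, at 1.32 to 2.43 times the background limit, against 4.49 and 6.09 times in replicate 3. In normalized levels cetrotide RNA ran from 9.92 to 12.69 and control RNA from 7.62 to 9.37.

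The PLAT ratio was 2.47, 2.25 and 3.32 in replicates 1, 2 and 3. Its mean of 2.68 ± 0.57 (SD, n = 3) equals a 6.4-fold higher level with cetrotide, with a 95% confidence interval of 3.75 to 10.9-fold from limma. Only 69 of the 27429 genes and unnamed probes had a ratio as high as that of PLAT or higher, PLAT included. The limma adjusted p was 0.178, the lowest value of any gene, and was shared by 569 tests. When limma fitted all 6 arrays, with terms for dye and with same-numbered areas as random blocks, PLAT passed at an adjusted p of 0.0176 with limma, as 1 of the 5 genes, where 1.5% of all genes passed as higher. That fit counts 6 arrays where the averages count 3. On slide 1 alone the PLAT ratio was 2.80 ± 0.48 and on slide 2 alone 2.55 ± 0.67 (SD over 3 arrays each).

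PLAU, the urokinase-type activator, was higher in cetrotide RNA in replicates 1 and 3 and lower in replicate 2. Its spots measured 1760, 3359 and 2355 units for cetrotide RNA on slide 1 in replicates 1, 2 and 3, against 535, 4533 and 1193 units for control RNA. On slide 2 they measured 2072, 2929 and 2718 units for cetrotide RNA, against 528, 3805 and 1168 units for control RNA. The spread lay in the control RNA. Averaged over the slides, the level was 10.97, 11.56 and 11.31 in cetrotide RNA, and 9.04, 12 and 9.97 in control RNA. Control RNA of replicate 2 thus held more PLAU than any cetrotide RNA, and the groups overlapped.

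The PLAU ratio was 1.93, -0.44 and 1.34 in replicates 1, 2 and 3, with a mean of 0.94 ± 1.23 and a limma 95% confidence interval from -0.70 to 2.59 (adjusted p = 0.55 with limma). Without replicate 2 it was 1.63, and without replicate 1 it was 0.45. Both slides showed the same order of replicates, with 1.12 ± 1.24 on slide 1 and 0.77 ± 1.22 on slide 2 (SD over 3 arrays each).

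PLAUR, the membrane-anchored receptor that binds urokinase, was dim, at 1.10 to 3.04 times the background limit. Its spots measured 259, 405 and 370 units for cetrotide RNA on slide 1, against 156, 565 and 407 units for control RNA. On slide 2 they measured 530, 617 and 605 units for cetrotide RNA, against 213, 337 and 256 units for control RNA. Control RNA was the brighter one in replicates 2 and 3 of slide 1 before normalization. The normalized ratio was above 0 on 5 of 6 arrays and -0.12 on the sixth, replicate 2 of slide 1.

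The PLAUR ratio was 0.93, 0.22 and 0.61 in replicates 1, 2 and 3. The mean of 0.59 ± 0.35 (SD, n = 3) is a 1.5-fold higher level, with a limma unadjusted p of 0.0329 and an adjusted p of 0.298. As with PLAU, the control RNA varied more than the cetrotide RNA, with levels of 8.54 ± 0.16 in cetrotide RNA and 7.95 ± 0.51 in control RNA (SD, n = 3 each), and in both genes the control level was highest in replicate 2. The groups overlapped, since control RNA reached 8.62 and cetrotide RNA began at 8.32.

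**Figure D2:**
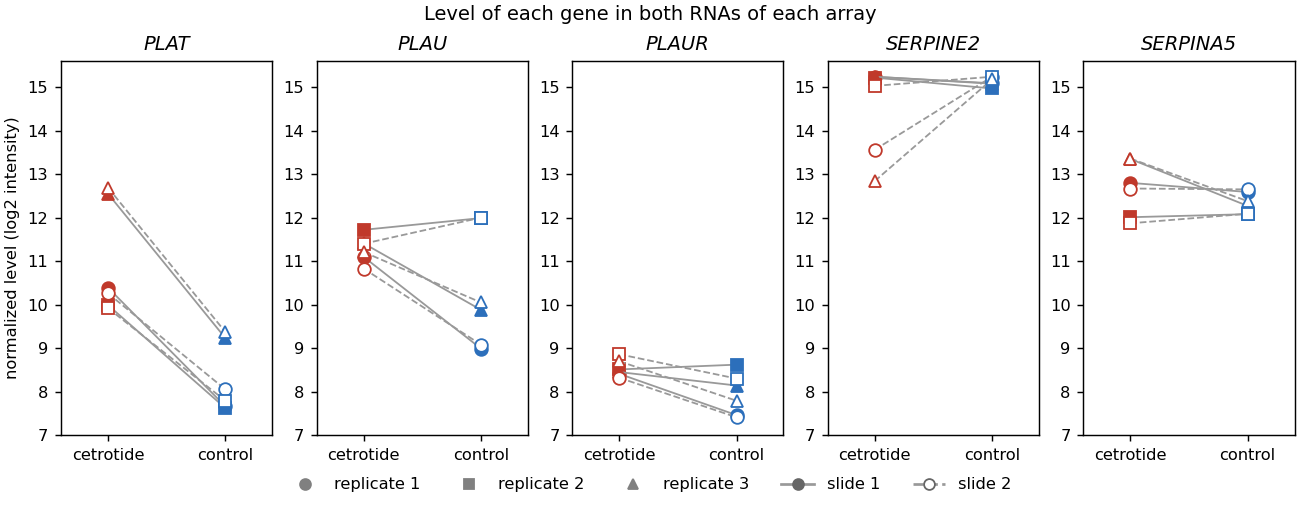
Normalized level (log2 intensity, vertical axis) of each gene in cetrotide RNA (left) and control RNA (right), with a line joining the 2 RNAs of an array. Levels are to be compared within a panel only. PLAT is higher in cetrotide RNA on every array, control RNA of replicate 2 is the highest for PLAU, and SERPINE2 drops in cetrotide RNA on slide 2 in replicates 1 and 3.

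SERPINE2 (protease nexin 1), a secreted serpin of granulosa cells that inhibits thrombin and both plasminogen activators, gave opposite ratios on the slides. On slide 1 its ratio was 0.15, 0.25 and 0.16 in replicates 1, 2 and 3. On slide 2 it was -1.69, -0.20 and -2.35. The mean of the dye-swap averages was -0.61 ± 0.57 (SD, n = 3), with averages of -0.77, 0.02 and -1.09 and a limma adjusted p of 0.433. The SD does not hold the difference between the slides. The dye term of the 6-array fit put slide 1 above slide 2 by 1.60, with a 95% confidence interval of 0.73 to 2.47 and a limma adjusted p of 0.0113. Such a difference was common, since 28.7% of all genes passed with a ratio higher on slide 1. In that direction, only 85 of the 27429 genes and unnamed probes had one as large as that of SERPINE2, itself included. Differences with slide 2 higher were not counted.

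Most SERPINE2 spots were near the top of the scanner's range. The cetrotide RNA of slide 1 measured 39768, 39386 and 37166 units in replicates 1, 2 and 3, against 36403, 32845 and 36447 units for control RNA. These are 94.1% to 99.9% of the brightest gene spot of the channel for cetrotide RNA, and 66.8% to 99.2% for control RNA. On slide 2 the cetrotide RNA measured 11835, 32616 and 6500 units, against 38992, 40016 and 38548 units for control RNA, which are 97.4% to 100% of the brightest spot. Median pixels of the control spots reached 62739 on slide 2, where the highest value of any spot in the files was 65535.

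A spot at the top of the range gives a lower bound of the RNA's signal. Median pixels of the SERPINE2 control spots ran from 28366 to 62739. For cetrotide RNA on slide 1 they were 64769, 58621 and 55354 in replicates 1, 2 and 3. None of these reached 65535. The control level of SERPINE2 on most arrays, and its cetrotide level on slide 1, may still be such bounds, which was not established. On slide 1, with both RNAs bright, the ratio thus has no settled size. Its cetrotide level was higher on slide 1 than on slide 2 by 1.69, 0.19 and 2.40 in replicates 1, 2 and 3, whereas its control level was lower on slide 1 by 0.15, 0.26 and 0.10. For the other 4 genes the same RNA differed between the slides by at most 0.39 in either direction. Dye and slide go together in this design and cannot be told apart. The part of spot brightness in the difference was not tested.

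**Figure D3:**
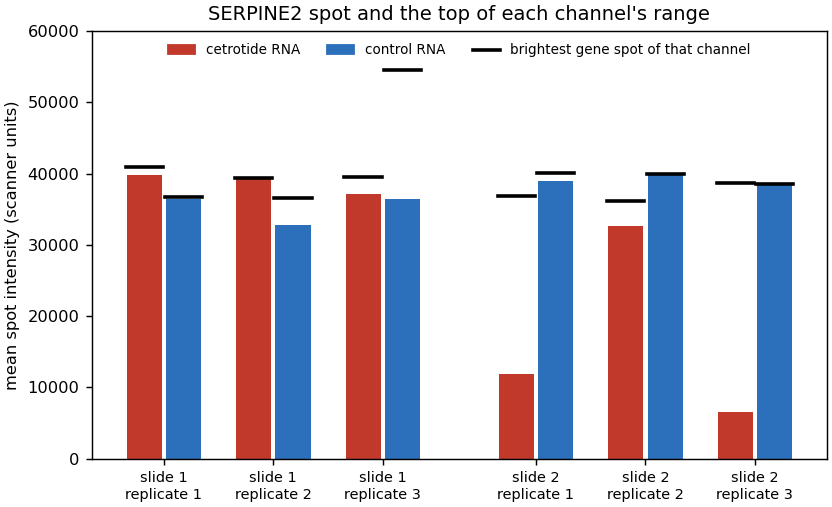
Mean spot intensity of SERPINE2 (vertical axis, scanner units) in cetrotide RNA and control RNA of each array, before background correction, with black lines at the brightest gene spot of each channel. Control RNA reaches or nears the line on most arrays, and cetrotide RNA stays far below it in replicates 1 and 3 of slide 2, at 11835 and 6500 units.

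SERPINA5 (protein C inhibitor), a serpin that inhibits activated protein C and plasminogen activators, was alike in both RNAs in 2 replicates and higher with cetrotide in the third. In replicate 3 its spots measured 8907 units on slide 1 and 10098 units on slide 2 for cetrotide RNA, against 5401 and 5631 units for control RNA. In replicates 1 and 2 cetrotide RNA measured 4035 to 6703 units and control RNA 4112 to 6813 units. The ratio was 0.12, -0.14 and 1.03 in replicates 1, 2 and 3, with a mean of 0.33 ± 0.61 and a limma 95% confidence interval from -0.50 to 1.17 (adjusted p = 0.682 with limma). Without replicate 3 the mean was -0.01.

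Differences between members were taken within each array. The PLAT ratio was above that of SERPINE2 on all 6 arrays and the PLAU ratio on 4 of 6, by amounts that the bright spots of SERPINE2 leave without a settled size. PLAT exceeded SERPINA5 by 2.35, 2.39 and 2.29, a mean of 2.34 ± 0.05 (SD, n = 3), the least spread of the pairs compared. These differences are descriptions of single genes.

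Genes with a symbol were ranked by the root mean square difference of their ratios from those of each of the 5 genes over the 6 arrays. Most like PLAT were ZFAND2A, a stress-induced proteasome-associated protein (difference 0.39, mean ratio 2.88 ± 0.65), the AP-1 subunit FOSL1 (0.47), the ephrin ligand EFNA1 (0.57), the aminopeptidase ANPEP (0.62) and the transcription factor ETS2 (0.69). Most like PLAU were LRRC70, SNCAIP and the growth factor feedback inhibitor SPRY1, at differences of 0.21 to 0.31. LRRC70 was above the background limit on 4 arrays in cetrotide RNA and on 3 in control RNA, and SNCAIP on 4 in each. SPRY1 had 1.60, -0.01 and 1.29 in replicates 1, 2 and 3. Nearest to SERPINE2 was INHBA, the inhibin beta A subunit and one of the granulosa markers used here (0.44), with -1.05, 0.06 and -1.02 in the replicates, -0.25 on slide 1 and -1.09 on slide 2. SCARB2 and GNG10 followed at 0.46 and 0.48. Likeness to SERPINE2 rests on ratios whose size its bright spots leave unsettled, so this order is unsettled too. For PLAUR these were LOC100138951, EIF3CL and CDHR4, and for SERPINA5 HTR2B, PSMA6 and ITPRIPL1, all at differences of 0.06 to 0.14.

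A wider list of plasmin generation and binding held 23 genes, of which 17 were named on the array and 13 were measured. None passed the adjusted threshold. At an unadjusted p under 0.05 there were 3 of 13 higher and 0 lower, where 8% of all genes were higher and 6.46% lower, the shares to hold beside the counts of the lists that follow. The median ratio was 0.23, where that of all genes was -0.01. The 3 were IGF2R, the receptor of mannose 6-phosphate and IGF2 (0.81 ± 0.46), SERPINB2, a serpin that inhibits urokinase (0.72 ± 0.48, with its other probe at 0.74), and the plasma protease HABP2 (0.23 ± 0.10), each above 0 on all 6 arrays. ANXA2, which gathers plasminogen and tissue-type activator at the cell surface, had 0.52, 0.88 and 2.37 in replicates 1, 2 and 3 (mean 1.26 ± 0.98, adjusted p = 0.36 with limma). Its partner S100A10 had 0.11 ± 0.50. The matrix protein VTN, which binds PLAUR, had -0.06 ± 0.14. The probe of plasminogen itself, PLG, was above the background limit on 1 array for each RNA and was not compared, and LRP1 was not analysed here.

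Of 21 other serpins 16 were measured, with a median ratio of 0.01, 8 above 0 and 8 below. At an unadjusted p under 0.05, 2 were higher and 0 lower. These were the intracellular serpins SERPINB8 (1.12 ± 0.56, adjusted p = 0.247 with limma), at 0.47, 1.45 and 1.45 in replicates 1, 2 and 3, and SERPINB10 (0.28 ± 0.13). In the 6-array fit with the replicate block, SERPINB8 passed at an adjusted p of 0.0476 with limma, as did TMPRSS2 at 0.0476, SPINT2 at 0.0393 and F8 at 0.0325 among the genes of the next lists. No other measured gene of these lists passed in that fit, where 1.5% of all genes passed as higher. The ratios of TMPRSS2, SPINT2 and F8 also differed between the slides (adjusted p = 0.000953, 0.0043 and 2.64e-05 with limma's dye term). Next by p came SERPINA3-8 (-0.26 ± 0.29), of a cattle gene cluster with near-identical copies that a probe may not separate, and the thrombin inhibitor SERPIND1 (0.13 ± 0.08). Both turned sign between the slides, SERPINA3-8 with -1.34 on slide 1 and 0.82 on slide 2 and SERPIND1 with -0.44 on slide 1 and 0.69 on slide 2. SERPINA3-8 was above the limit on 2 arrays in cetrotide RNA and on 4 in control RNA.

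Other serine proteases and protease inhibitors had a median ratio of -0.01 over 15 measured of 20 genes, and 2 were higher and 0 lower by the unadjusted threshold of 0.05. The membrane protease TMPRSS2 had 0.84, 0.52 and 0.62 in replicates 1, 2 and 3 (mean 0.66 ± 0.16, adjusted p = 0.18 with limma). The membrane-bound Kunitz inhibitor SPINT2 had 1.26, 0.78 and 0.65 (mean 0.90 ± 0.32), with its other probe at 0.16. The Kunitz inhibitor TFPI2, known to block plasmin, had 3.30, 0.30 and 5.01 (mean 2.87 ± 2.39). TFPI, an inhibitor of the clotting start, passed the background limit on 4 arrays in cetrotide RNA and on 0 arrays in control RNA, so that its ratios have no settled size. They were 1.73, 0.00 and 1.33 in replicates 1, 2 and 3 (limma adjusted p = 0.41).

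Clotting and fibrin genes had a median ratio of 0.06 over 19 measured of 22, and 1 was higher and 1 lower by the unadjusted threshold of 0.05. The higher one was clotting factor F8 (0.70 ± 0.10), which had 0.00 on slide 1 and 1.39 on slide 2. The lower one was PROS1 (protein S), a cofactor of anticoagulant protein C, with -1.47, -0.32 and -1.83 in replicates 1, 2 and 3 (mean -1.21 ± 0.79, adjusted p = 0.306 with limma) and a ratio below 0 on all 6 arrays. F5 had 0.63 ± 0.52 and the fibrinogen chain FGB 0.22 ± 0.12, with its other probe at -0.03. FGB had -0.29 on slide 1 and 0.73 on slide 2.

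**Figure D4:**
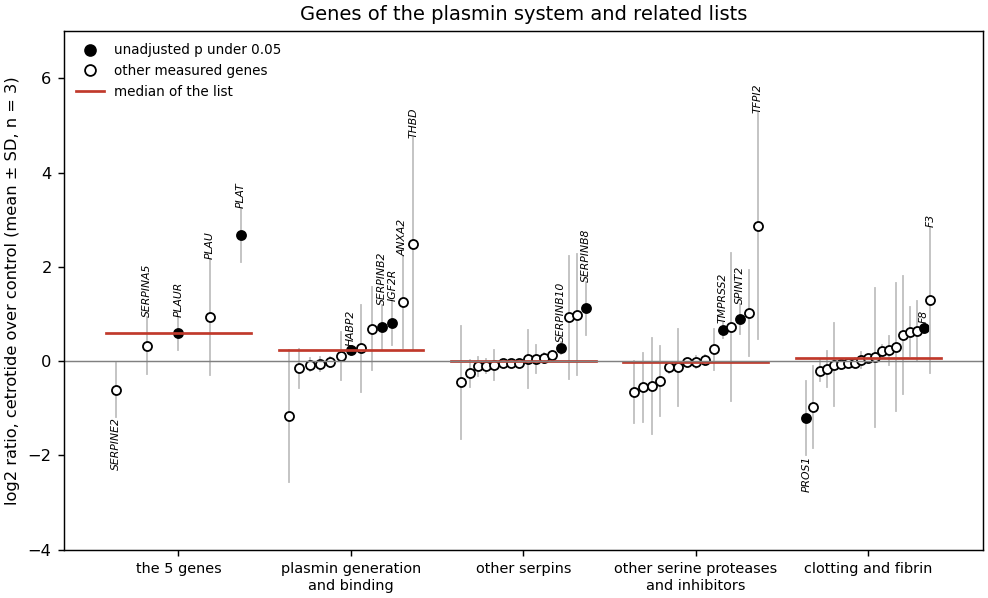
Mean log2 ratio of cetrotide over control (vertical axis) with SD bars over 3 dye-swap averages for the 5 genes and 4 related lists, 1 point per measured gene in order of its ratio, filled at an unadjusted p under 0.05. Red lines are list medians, which run from -0.01 for the other proteases and inhibitors to 0.59 for the 5 genes.

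Marker lists of some other cell types had medians away from 0 in some or all of the same replicates. In bulk cells, fewer cells of a type and less RNA per cell cannot be told apart. Of all genes, 46.8% had a mean ratio above 0. Epithelial markers had one above 0 for 9 of 9 measured genes, with list medians of 0.78, 1.36 and 3.30 in replicates 1, 2 and 3, and their summed level ran from 13.72 to 17.41 in cetrotide RNA and from 10.84 to 14.19 in control RNA. CDH1 of that list was not measured. Each marker counts by its brightest probe. EPCAM, at 2.77, had its other probe at 0.04, and ESRP1, at 1.46, had its other probe at -0.03. The list median was highest in replicate 3, as were PLAT and SERPINA5, but KRT8 was highest in replicate 1, and CLDN4 and GRHL2 in replicate 2.

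Endothelial markers had medians of 0.62, -0.02 and 0.44 and leukocyte markers of 0.54, -0.06 and 0.70 in replicates 1, 2 and 3, so that both were near 0 in replicate 2, where PLAU was -0.44 and PLAT 2.25. Above 0 were 8 of 10 measured endothelial and 11 of 13 measured leukocyte markers. By other probes, the leukocyte marker LAPTM5, at 1.45, had 0.31 and -0.04, and the endothelial marker ERG, at -0.02, had 0.10. The summed endothelial level ran from 10.54 to 12.08 in cetrotide RNA and from 10.55 to 10.95 in control RNA. That of leukocyte markers ran from 12.36 to 13.24 in cetrotide RNA and from 11.14 to 12.43 in control RNA. The endothelial markers PECAM1, FLT1, TIE1 and PLVAP and the leukocyte markers CSF1R, ITGAM and ITGB2 were not measured. PTPRC was above the limit for both RNAs on all 6 arrays. Its ratio was 0.09, -0.86 and 0.88 in replicates 1, 2 and 3, with a mean of 0.04. CD2, also counted as above 0, had 0.05, and the highest leukocyte marker was BOLA-DRA at 1.57.

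Theca and stroma markers had medians of 0.86, 0.07 and 0.15, with 10 of 11 above 0 and summed levels of 14.55 to 16.36 in cetrotide RNA and 13.27 to 14.31 in control RNA. The highest ratios of that list were those of the collagens COL3A1, at 8.37, 0.40 and 4.98 in replicates 1, 2 and 3, and COL1A2, at 7.23, 1.10 and 4.78, both above 0 on all 6 arrays. COL1A2 was above the limit on 3 arrays in control RNA and COL3A1 on 5. The median of the list's mean ratios was 0.3. Below it lay CYP17A1 (0.03), INSL3 (0.24), PDGFRB (0.1), RGS5 (0.09) and PDGFRA (-0.02). Granulosa markers had -0.33, 0.32 and -1.29 in replicates 1, 2 and 3, with 5 of 10 below 0, beside SERPINE2 at -0.77, 0.02 and -1.09. Their summed level ran from 15.04 to 16.51 in cetrotide RNA and from 16.09 to 16.59 in control RNA. By other probes, the granulosa marker NR5A2, at -1.20, had -0.38 and 1.02, and CYP19A1, at -1.01, had -0.10 and -0.54. Red cell and oocyte markers had medians of 0.03 and -0.04. The part of these cell types in the ratios of the 5 genes was not tested.

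**Figure D5:**
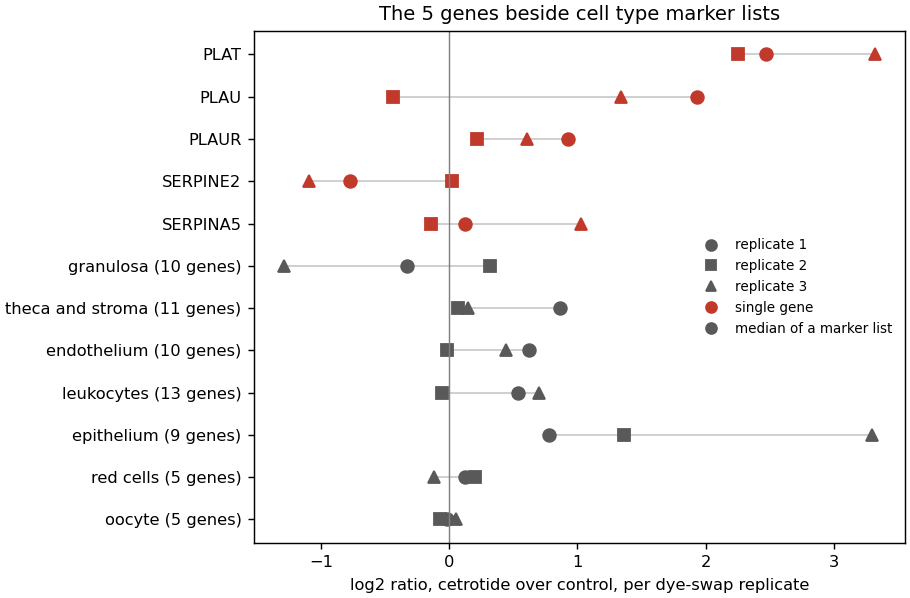
Log2 ratio of cetrotide over control (horizontal axis) in each dye-swap replicate for the 5 genes (red) and as the median of each cell type marker list (grey), with the replicate shown by the marker shape. PLAT is above 2 in all replicates, while endothelial and leukocyte medians are near 0 in replicate 2 and the epithelial median reaches 3.30 in replicate 3.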

How the data were processed

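Per the labels' protocols, total RNA of small cell samples was amplified over T7 rounds and labelled chemically with Cy3 or Cy5. The deposited scanner tables hold spot intensity and local background at 532 nm and 635 nm, raw per the file headers. The authors also deposited log ratios, taken as log2; set against the scanner values they ran cetrotide over control, with medians of -0.00191, -0.000108, 0.000134, 0.00229, 0.00214 and 0.00748. The sources used here do not give their centring and normalization, and they served as an alternative.

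Mean intensities were corrected with normexp (offset 50), which pulls ratios of dim probes towards 0, and normalized by loess within arrays, with control spots at weight 0 (limma 3.58.1, R 4.3.3). Levels were then taken after Aquantile. Probes above the limit on at least 4 of 6 arrays for either RNA were kept, 31769 of 43794, and a gene was taken at its brightest kept probe. Symbols came from the platform annotation, 1524 of them updated through the RefSeq table of ARS-UCD2.0.

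Deviations from the slide means correlated at 0.900, 0.934 and 0.954 between arrays of the same area number, so these were paired. Limma (lmFit, eBayes) compared the 3 averages with 0, and p-values were adjusted by Benjamini-Hochberg over 27429 tests. Nothing says that the averages hold separate cows, so the p-values reflect only how these samples vary, which may be technical. Steps were tested on simulated data. The members, lists and tests were chosen with earlier results of these data known. Named genes were the 5 genes, up to 4 per list by p, set ones (PLG, LRP1, ANXA2, S100A10 and VTN among them) and the nearest in pattern, 5 for PLAT and 3 for each other gene.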

Additional observations from a re-analysis of the deposited data

Results flagged for a closer look

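SERPINE2 stood out for a ratio that differed between the slides. The ratio of cetrotide over control was higher on slide 1 than on slide 2 by 1.60 on the log2 scale (adjusted p = 0.0113 with limma's dye term, replicate block included), with 0.19 on slide 1 and -1.41 on slide 2. It was above 0 on all 3 arrays of slide 1 and below 0 on all 3 arrays of slide 2.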

How the results depend on the processing

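The ratio of PLAT stayed between 2.26 and 2.85 over 13 alternatives and between 2.36 and 2.89 when a replicate was left out. It passed in 2 of the 13: at 2.68 with the replicate block (adjusted p = 0.0176) and at 2.68 from 6 arrays without a replicate block (adjusted p = 0.00403), which takes paired arrays as independent. Called genes among the 5 were then 1 higher in each, and among all genes 411 higher and 264 lower with the block, 1806 and 1458 without it, and 662 and 225 on slide 2 alone, against 0 and 0 from the averages. The averages gave 2193 higher and 1771 lower genes by limma's p before adjustment (under 0.05). The block changed no other call by adjusted p among the 5 genes. For PLAUR limma's unadjusted p was 0.0676 in that fit, against 0.0329 from the averages. PLAU, PLAUR and SERPINA5 kept their sign over the 13 alternatives, at 0.77 to 1.12, 0.38 to 0.79 and 0.17 to 0.41. For all 5 genes, PLAT included, the filters, the mean of a gene's probes and the 6-array fits could not move the ratio. Each gene had 1 probe that passed every filter, and the 6-array mean equals that of the averages. Only the other alternatives tell how far the ratio depends on the processing. SERPINE2 turned to 0.19 on slide 1 alone, and SERPINA5 to -0.01 without replicate 3. Leaving out a replicate gave 0.45 to 1.63 for PLAU, 0.42 to 0.77 for PLAUR, -0.93 to -0.37 for SERPINE2 and -0.01 to 0.57 for SERPINA5.

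The slide difference of SERPINE2 ran from 1.43 to 2.40 and did not pass at 1.60 without the block (adjusted p = 0.138). Others passed or turned in places: PLAUR at -0.70 with median centring and -0.41 where both RNAs had to be above background on all arrays, SERPINA5 at 0.28 with median centring, -0.01 with median pixels and -0.0046 with the authors' ratios, and PLAT at 1.02 with scale normalization. Without a replicate it was tested in another way, on 2 pair differences, and was 0.12 to 0.38 for PLAT (passing at 0.38 without replicate 3), 0.35 to 0.37 for PLAU (passing each time), -0.64 to -0.27 for PLAUR (passing at -0.64 without replicate 1), 1.15 to 2.17 for SERPINE2 and 0.13 to 0.17 for SERPINA5.

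Under the stricter filter list medians were -0.04 for other serpins, -0.13 for other proteases and 0.22 for clotting, and 0.23 as before for plasmin, which had 0.11 with no filter. The proteases had -0.08 with median pixels, -0.09 with the authors' ratios and 0.09 on slide 2, and the serpins 0.05 on slide 1. Without a replicate the medians were 0.04 to 0.33 (plasmin), -0.02 to 0.08 (serpins), -0.01 to 0.05 (proteases) and -0.06 to 0.22 (clotting). The causes were not tested. PLAUR was dim, as was the control RNA of PLAT in replicates 1 and 2. Most SERPINE2 spots were near the top of the range. The size of these genes' ratios is to be read with care.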

Other observations

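Clotting and plasmin genes, chosen here after their values were seen, differed in which replicate was highest. Thrombomodulin (THBD), the endothelial and epithelial receptor that turns thrombin towards protein C, had 1.5, 0.87 and 5.05 in replicates 1, 2 and 3 (mean 2.48 ± 2.25), was above 0 on all 6 arrays and had its other probe at 1.4. Tissue factor (F3), which starts clotting, had 0.00, 0.90 and 2.99 (mean 1.30 ± 1.54). Their adjusted p were 0.414 and 0.513 with limma. The protein C receptor PROCR had 1.11, -1.61 and 0.73, and von Willebrand factor (VWF) had 1.20, -0.05 and 0.76, both highest in replicate 1. Epithelial markers had medians of 0.78, 1.36 and 3.30 in the same replicates, and their part was not tested.

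The proteases PRSS23 and PRSS35, which are known in ovarian follicles, lay on the other side. PRSS23 had -1.32, 0.00 and -0.66 (mean -0.66 ± 0.66) and PRSS35 -0.17, 0.29 and -1.67 (mean -0.52 ± 1.02), with its other probe at -1.0. The thrombin receptor F2R had -0.95, -0.12 and -1.85 (mean -0.97 ± 0.87), with its other probe at -0.71. These 3 genes, also chosen after their values were seen, did not pass the adjusted threshold of limma, and granulosa markers had medians of -0.33, 0.32 and -1.29 in these replicates.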
